A study of Mus musculus with 84 samples.

Results

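The liver response to the lowest dose of BI 456906, a peptide agonist of the glucagon receptor (GCGR) and the glucagon-like peptide-1 receptor (GLP-1R), was described from 12 of the 84 RNA sequencing libraries of the series. These were the 6 livers from mice given 3 nmol/kg and the 6 livers from mice given vehicle, chosen by their labels and matched to their columns through the library number in the sample title. All were male C57BL/6J mice made obese on a diet with 60% of energy from fat, housed singly, 22 weeks old when dosing began and injected subcutaneously each day for 30 days. The vehicle mice received the phosphate and mannitol buffer alone. The series also holds livers from mice given BI 456906 at 10, 20 or 30 nmol/kg and semaglutide, a selective GLP-1R agonist, at 20 or 100 nmol/kg, together with epididymal fat that was not used here. Mice are named by their library number, 43 to 48 for vehicle and 49 to 54 for 3 nmol/kg. Each library came from a different mouse. The p-values of the gene tests rest on the spread between mice within all 7 liver groups, 42 livers together. Those of the exact permutation tests rest on the 12 livers described here.

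Hepatocytes carry the GCGR at high density. Its activation raises cAMP, and the phosphorylation of CREB and induction of Ppargc1a that follow increase gluconeogenesis and amino acid breakdown, while glycolysis and fat synthesis are restrained. Hepatocytes have little or no GLP-1R, so GLP-1R agonism reaches the liver mainly through lower food intake and body weight and through changes in insulin and glucagon.

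The 12 libraries held 39049001 to 53869104 reads on genes. The label liver fitted the markers: Alb lay between 43236 and 55382 TPM (the authors' level scaled for transcript length and library total) and Apoa1 between 11437 and 18531 TPM. The summed hepatocyte markers were 74873 ± 5941 TPM in vehicle and 84426 ± 4217 TPM at 3 nmol/kg (SD, n = 6; exact permutation test, two-sided, adjusted p = 0.0866). For the summed markers of 10 other cell types, from Kupffer cells to muscle, no difference between the groups was detected by the same exact test (adjusted p from 0.494 to 0.870). Of 6 stellate cell markers Lrat, which esterifies retinol, was 3.45 to 7.27 TPM in vehicle and 2.16 to 5.76 TPM at 3 nmol/kg (log2 fold change -0.64 ± 0.20, SE; false discovery rate, FDR, of 0.0321 in the limma fit used throughout). Of 6 endothelial markers the receptor Kdr was 10.6 to 18.5 and 15.1 to 21.2 TPM (0.26 ± 0.08, FDR = 0.0303; 0.407 when a trend with transcript length was removed). No other tested marker of these types had an FDR of at most 0.05, whereas 13.4% of all genes tested did. Log2 fold changes ran from -0.64 (Lrat) to 0.20 (Reln) over the stellate markers and from -0.28 (Lyve1) to 0.26 (Kdr) over the endothelial ones. In such bulk samples fewer cells of a type and less RNA per cell cannot be told apart. Mitochondrial transcripts took 10.8 to 11.4% of the TPM in vehicle and 9.93 to 10.7% at 3 nmol/kg, with no overlap (exact permutation p = 0.00216, the smallest that 924 arrangements allow; adjusted p = 0.0162 over 15 values).

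At 3 nmol/kg the liver transcriptome had moved by small steps. Of 15964 genes tested in a limma fit of all 42 liver libraries, 2138 (13.4%) had an FDR that did not exceed 0.05, of which 1351 (8.46%) were higher and 787 (4.93%) lower than in vehicle. Their log2 fold changes had a median size of 0.35, and 1617 of the 2138 moved by less than 0.5. With a further threshold of 1 on the log2 scale 125 genes (0.783%) were called, 56 higher (44.8%, against 59.3% with edgeR and 71.1% with DESeq2) and 69 lower, and 65 of the 125 had a mean level under 1 TPM. The share of higher genes among those past the FDR was 63.2%, and it was 52.8% when library size alone was used for scaling and 78.99% in a fit of log2(TPM + 1).

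The count rested on the spread estimated from all 42 livers and on individual mice. In a fit of the 12 livers alone 3 of 14946 genes (0.0201%) passed the FDR, namely Pklr, Acnat2 and Cfd, although 3512 genes (23.5%, against 28.7% in the 42-library fit) had an unadjusted p under 0.05 and 1355 genes had an FDR of at most 0.12. Leaving out mouse 51 gave 761 genes, mouse 48 gave 925, mouse 53 gave 1038, mouse 45 gave 1269, mouse 54 gave 1330 and mouse 43 gave 1413. Without mice 48 and 51 together 76 genes passed, a setting added after the data were seen. By median log2 distance (0.191 and 0.186) each was the farthest from the other 5 of its group. By the number of genes at least 2-fold from the others vehicle mouse 47 was farther (246) than mouse 48 (173). The FDR values given for single genes are those of the 42-library fit unless another is named. A signed value written with ± beside a gene is its log2 fold change against vehicle with its SE, unless another quantity is named. Of the 98 genes chosen by the naming rules or named after their values were seen that passed this fit, 95 did not pass in the 12 livers alone and 86 did not pass without mice 48 and 51.

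Changes at 3 nmol/kg also moved with transcript length. Genes were divided into 5 equal classes by their longest annotated transcript. In the class of longest transcripts (at least 4989 bases) 27.4% were higher and 1.16% lower than in vehicle, whereas in the class of shortest (up to 1655 bases) 1.26% were higher and 8.01% lower. The difference between the medians of the longest and shortest classes, relative to the vehicle mean, was 0.45 on the log2 scale in mouse 51, 0.44 in mouse 53, 0.36 in mouse 54, 0.35 in mouse 49, 0.12 in mouse 52 and -0.00297 in mouse 50. Among vehicle mice it ran from -0.39 in mouse 48 to 0.23 in mouse 44. In the groups given more BI 456906 or semaglutide it lay between 0.295 and 0.636 in every mouse. When each library's trend with transcript length was removed, a setting added after the data were seen, 940 of 15921 genes (5.9%) passed, 517 higher (3.25%) and 423 lower (2.66%), and 765 of them were among the 2138 with the same sign. The part of transcript length in single results was not tested beyond this fit. Its FDR is given beside genes described as higher or lower than in vehicle that passed in the first fit and not in this one.

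**Figure D1:**
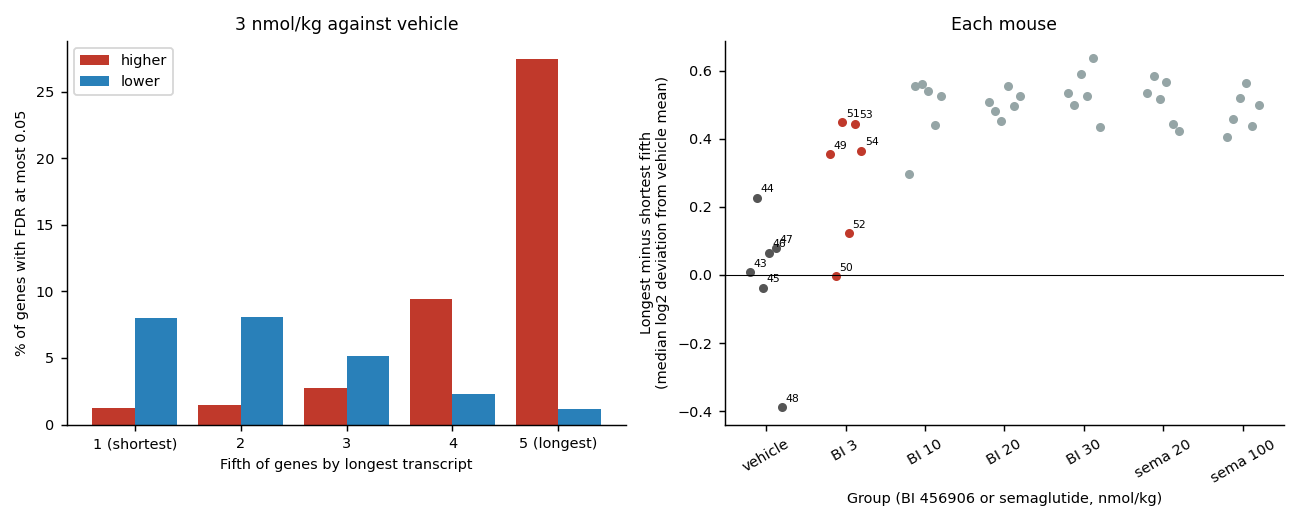
Left, percent of genes with FDR at most 0.05 that were higher or lower at 3 nmol/kg than in vehicle, in 5 equal classes of genes by longest annotated transcript. Right, median log2 deviation from the vehicle mean in the longest class minus that in the shortest class, 1 point per mouse; mice 50 and 52 lay within the vehicle range, and mice 49, 51, 53 and 54 lay above it.

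Promoters of 4 genes are shown because these genes stand for cAMP signalling, gluconeogenesis and glycolysis, the best known endpoints of GCGR action in liver. They moved the same way with the selective GLP-1R agonist. Against vehicle, log2 fold changes with 20 nmol/kg semaglutide were 1.32 (Pck1), 1.19 (Ppargc1a), 1.41 (Per1) and -1.12 (Pklr). With 3 nmol/kg BI 456906 they were 0.66, 0.56, 0.89 and -0.95. The sequences are the 250 bases before the transcription start in RefSeq, build GRCm38.p6, written 5′ to 3′ on the strand of the gene. In the first 3, capitals mark the half-site of the cAMP response element, TGACG on either strand, which 20.8% of all 32851 promoters in the table hold.
Pck1, chr2:173152823-173153072, plus strand: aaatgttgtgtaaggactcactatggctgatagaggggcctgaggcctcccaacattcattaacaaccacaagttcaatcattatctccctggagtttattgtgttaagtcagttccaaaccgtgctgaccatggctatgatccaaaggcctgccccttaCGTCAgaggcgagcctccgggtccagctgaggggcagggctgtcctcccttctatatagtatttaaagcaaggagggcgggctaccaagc
Ppargc1a, chr5:51567726-51567975, minus strand: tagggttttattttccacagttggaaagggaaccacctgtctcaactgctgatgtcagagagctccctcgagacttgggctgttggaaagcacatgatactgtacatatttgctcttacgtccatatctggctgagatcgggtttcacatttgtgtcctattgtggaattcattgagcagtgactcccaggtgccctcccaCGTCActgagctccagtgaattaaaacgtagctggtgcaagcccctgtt
Per1, chr11:69099902-69100151, plus strand: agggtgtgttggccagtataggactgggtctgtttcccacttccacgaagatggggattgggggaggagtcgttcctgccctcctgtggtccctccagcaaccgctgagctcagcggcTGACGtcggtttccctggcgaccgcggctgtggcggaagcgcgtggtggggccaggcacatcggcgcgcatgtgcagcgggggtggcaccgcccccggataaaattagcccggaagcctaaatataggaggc
Pklr, chr3:89136373-89136622, plus strand: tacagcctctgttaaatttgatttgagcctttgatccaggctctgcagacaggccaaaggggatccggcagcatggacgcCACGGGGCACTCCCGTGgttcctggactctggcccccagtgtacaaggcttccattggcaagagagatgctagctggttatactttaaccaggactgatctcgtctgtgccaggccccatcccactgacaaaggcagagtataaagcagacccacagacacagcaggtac
The half-sites began at base -90 in Pck1, -49 in Ppargc1a and -132 in Per1, counted back from the start; another Per1 start in the table held one at base -246. In Pklr the capitals mark CACGGG and CCCGTG with 5 bases between them, beginning at base -170, the carbohydrate response element for which this gene is known. That motif was chosen after the promoter was read, the other Pklr start in the table did not hold it, and it was found in 1 of the 32851 promoters (0.00304%). Of the 98 named genes that passed the FDR, 72 had a promoter in the table. The half-site was in promoters of 22 of these, the full element TGACGTCA in 1 (1.79% of all promoters), the E-box CACGTG in 9 (7.15%), the sterol element TCACNCCAC in 1 (1.24%) and the nuclear receptor repeat, AGGTCA in tandem 1 base apart, in 0 (0.0396%). The counts are over genes, some with several starts, and the shares are over promoters. Both rest on the whole entries of 300 bases, which run on past the start and so beyond the stretches shown.

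Among genes with a mean of at least 1 TPM, 138 passed the FDR with 6 levels that did not overlap those of vehicle, 84 above and 54 below; over all genes tested, 204 (1.28%) did not overlap, 0.814% lying wholly above and 0.464% wholly below. The largest fall among these was in Cfd, which encodes complement factor D (adipsin), a serine protease made mainly by adipocytes. Cfd was 5.44, 8.83, 11.4, 12, 12.4 and 18.7 TPM in the vehicle mice and 0.690, 1.41, 1.81, 2.38, 2.4 and 4.21 TPM at 3 nmol/kg. The groups did not overlap, and the log2 fold change was -2.59 ± 0.38 (SE; FDR = 0.000495). Cfd kept an FDR under 0.05 in each of the 23 settings in which it could be fitted. It made up most of the summed adipocyte markers, which were 12.04 ± 4.44 TPM in vehicle and 2.45 ± 1.24 TPM at 3 nmol/kg (SD, n = 6; exact permutation p = 0.00216, adjusted p = 0.0162). The other 4 adipocyte markers were near 0 in both groups. Adipoq reached at most 0.530 TPM in vehicle and 0.550 TPM at 3 nmol/kg, and the highest values of Plin1, Lep and Retn in the 12 livers were 0.370, 0.140 and 0.120 TPM.

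Pklr, liver pyruvate kinase, the last step of glycolysis, was 263, 268, 275, 281, 329 and 333 TPM in the vehicle mice and 138, 140.2, 157, 177, 181 and 189 TPM at 3 nmol/kg. Every treated mouse was below every vehicle mouse, and the log2 fold change was -0.95 ± 0.20 (FDR = 0.00330; 0.00102 in the 12 livers alone). It passed in 23 of 24 settings, the exception being the one without mice 48 and 51. Acnat2, an acyltransferase that conjugates fatty acids to taurine, was 34.5 to 47.1 TPM in vehicle (median 42.8) and 56.2 to 92.2 TPM at 3 nmol/kg (median 72.4). These groups were apart as well, with a log2 fold change of 0.81 ± 0.23 (FDR = 0.0152; 0.0105 in the 12 livers alone), and the call was lost without mouse 51.

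The other leading rises were in secreted proteins, regulators and predicted transcripts. Fgl1, a secreted hepatokine, was 220.0 to 318 TPM in vehicle (median 233) and 349 to 679 TPM at 3 nmol/kg (median 521; log2 fold change 0.96 ± 0.18, FDR = 0.00187). Foxa3, a forkhead factor of hepatocytes, was 22.1 to 27.8 TPM (median 24.8) and 31.99 to 62.01 TPM (median 43.8; 0.76 ± 0.15, FDR = 0.00252). Both kept their call without mice 48 and 51. Il1r1, the signalling receptor of interleukin 1, was 4.87 to 6.28 TPM in vehicle but 6.76, 7, 9.95, 11.3, 21.1 and 36.2 TPM at 3 nmol/kg (1.08 ± 0.31, FDR = 0.0176; 0.0577 with the length trend removed). Mice 49 and 50 lay just above vehicle and mice 51 and 54 far above it. Lrg1, a secreted glycoprotein of the acute phase, rose by 0.78 ± 0.20 (FDR = 0.00818) and Skil, a repressor of SMAD signalling, by 0.74 ± 0.14 (FDR = 0.00148). The remaining leading rises were Gm45344 (1.5), Gm8893 (1.3), Gnat1 (1.3), a transducin subunit best known from rods, and Ccdc82 (0.82). Reads of the predicted transcripts may be shared with copies elsewhere.

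The leading falls besides Cfd and Pklr were Krt23, a keratin, the long noncoding RNA Pvt1, the lambda-crystallin Cryl1, the selenoprotein Selenoh, the mitochondrial deacylase Sirt5, Olfml1, E330011O21Rik and 2200002D01Rik. Krt23 was 4.95 to 7.4 TPM in vehicle (median 6.22) and 1.12 to 4.83 TPM at 3 nmol/kg (median 3.39), lowest in mice 51 and 54 (log2 fold change -1.16 ± 0.34, FDR = 0.0218; 0.0506 with the length trend removed). Cryl1 was 13.4 to 19.3 TPM (median 17.1) and 7.21 to 12.3 TPM (median 10.8), a smaller fall that held without mice 48 and 51 (-0.70 ± 0.12, FDR = 0.000967). The other 6 had log2 fold changes from -1.03 (E330011O21Rik) to -0.58 (Sirt5). In each of these 8 genes mouse 51 was the lowest of the 12.

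**Figure D2:**
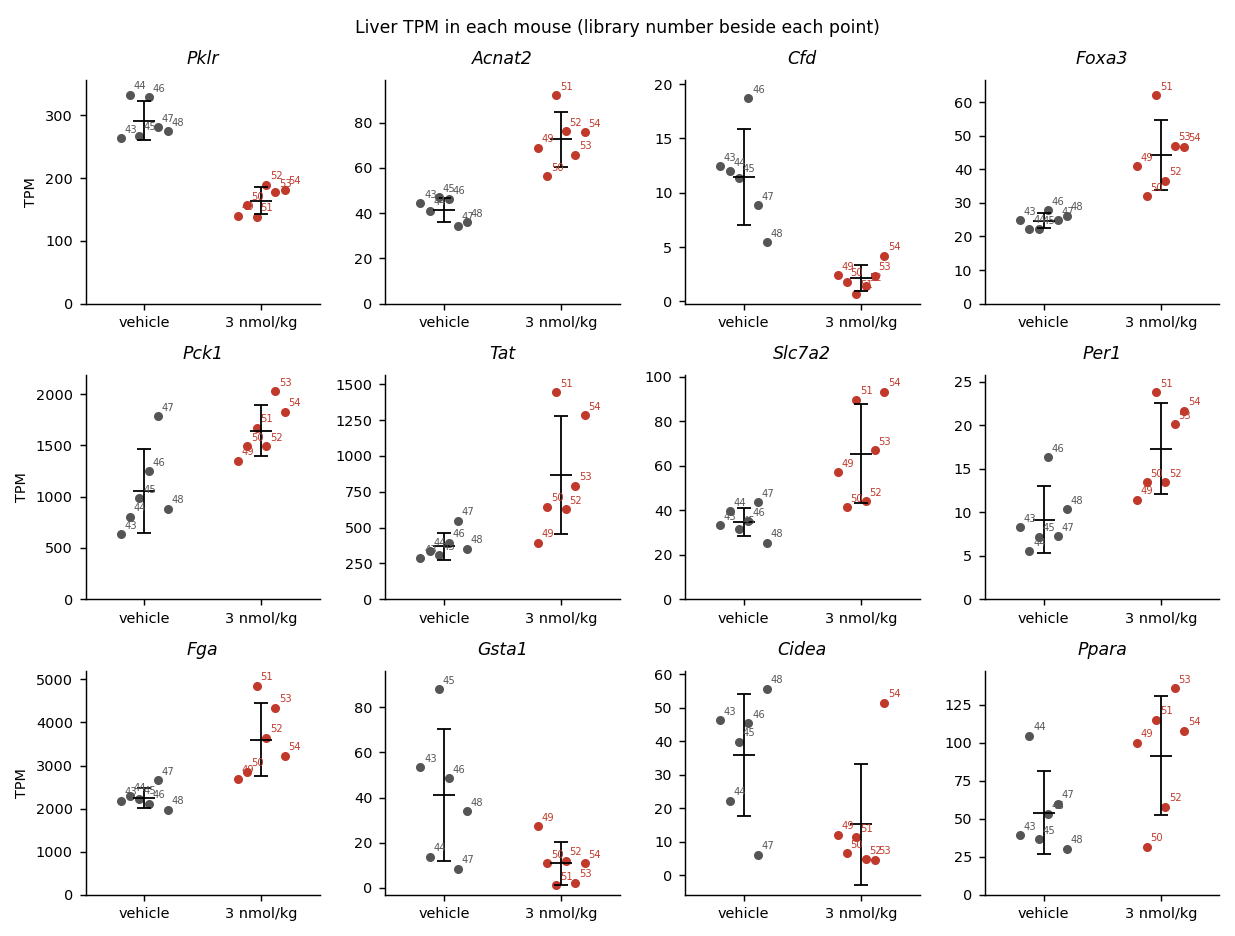
Level in TPM of 12 genes in each of the 6 vehicle mice and 6 mice at 3 nmol/kg, with the library number beside each point and the group mean with its SD. Pklr, Acnat2, Cfd, Foxa3 and Fga did not overlap between the groups, Tat was highest in mice 51 and 54, and Gsta1, Cidea and Ppara overlapped.

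Signalling and gluconeogenesis moved in a few members each. Gcgr itself was 216 to 229.9 TPM in vehicle and 187 to 234 TPM at 3 nmol/kg (log2 fold change -0.11 ± 0.07, FDR = 0.295). In the list of 26 tested genes of GCGR and cAMP signalling 6 rose and 1 fell (26.9%, beside 13.4% of all genes), with a median log2 fold change of 0.09 beside -0.01 over all genes. Per1, a clock gene that is also an immediate CREB target, was 5.52 to 16.4 TPM in vehicle (median 7.79) and 11.4 to 23.8 TPM at 3 nmol/kg (median 16.8), and 3 treated mice lay above every vehicle mouse (0.89 ± 0.18, FDR = 0.00288). The other rises were Creb1, the transcription factor itself (0.40 ± 0.09, FDR = 0.00463), the phosphodiesterase Pde3b (0.35 ± 0.08, FDR = 0.00610), Adcy9, Prkar2a and Sik2. With the length trend removed Per1 and Adcy9 were the 2 members that rose, while Creb1, Pde3b, Prkar2a and Sik2 did not pass (FDR of 0.152, 0.162, 0.235 and 0.0891). Gnas, the stimulatory G protein, fell by 0.19 ± 0.04 on the log2 scale (FDR = 0.00393).

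Of 12 gluconeogenesis genes 3 rose and 0 fell (25%, beside 13.4% of all genes), 1 of them with the length trend removed, and the list median was -0.06. Pck1, the cytosolic phosphoenolpyruvate carboxykinase, was 632 to 1783 TPM in vehicle (median 933) and 1349 to 2028 TPM at 3 nmol/kg (median 1584). The groups overlapped through vehicle mouse 47 alone, and the log2 fold change was 0.66 ± 0.16 (FDR = 0.00810). Ppargc1a, the coactivator of this programme, was 1.07 to 1.84 TPM in vehicle and 1.62 to 3.14 TPM at 3 nmol/kg, with 4 treated mice above every vehicle mouse (0.56 ± 0.15, FDR = 0.0123; 0.0917 with the length trend removed). Foxo1 rose by 0.36 ± 0.11 (FDR = 0.0309; 0.581 with the length trend removed). G6pc, the glucose-6-phosphatase that releases glucose, was 229 to 372 TPM in vehicle and 244 to 357 TPM at 3 nmol/kg (-0.07 ± 0.17, FDR = 0.833).

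Among amino acid genes, 4 of 17 transporters rose and 0 fell (23.5%, beside 13.4% of all genes). Slc38a2, a sodium-coupled transporter of neutral amino acids, was 12.8 to 21.2 TPM in vehicle (median 17.2) and 20.6 to 48.2 TPM at 3 nmol/kg (median 32.5; 0.83 ± 0.17, FDR = 0.00271). Slc7a2, a transporter of cationic amino acids, was 25.5 to 43.5 TPM (median 34.2) and 41.3 to 93.3 TPM (median 61.98; 0.80 ± 0.18, FDR = 0.00405). For each, 5 of 6 treated mice lay above every vehicle mouse. Slc38a4 rose by 0.24 ± 0.06 and Slc16a10, a carrier of aromatic amino acids, by 0.42 ± 0.13, the latter not with the length trend removed (FDR = 0.127).

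Of 43 genes of amino acid breakdown 2 rose and 3 fell (11.6%, beside 13.4% of all genes). Tat, tyrosine aminotransferase, a classical target of glucagon and glucocorticoids, was 285, 309, 336, 353, 393 and 548 TPM in vehicle and 395, 628, 646, 792, 1285 and 1443 TPM at 3 nmol/kg. Mouse 49 lay within the vehicle range and the other 5 above it (1.08 ± 0.25, FDR = 0.00499). The branched-chain genes Dbt (0.31 ± 0.10) and Bckdhb (-0.19 ± 0.06) moved by little, and neither passed with the length trend removed (FDR of 0.0517 and 0.291). The serine dehydratase Sds (0.08 ± 0.23, FDR = 0.862), the aspartate aminotransferase Got1 (0.12 ± 0.27, FDR = 0.805) and the liver glutaminase Gls2 (0.07 ± 0.12, FDR = 0.750) had levels that overlapped those of vehicle. Sds was 117 to 179 TPM in vehicle and 88.4 to 260.2 TPM at 3 nmol/kg, lowest in mouse 49 and highest in mouse 54, and Got1 was 110.1 to 188 and 121 to 292 TPM.

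Of 12 urea cycle and ammonia genes 2 rose and 1 fell (25%, beside 13.4% of all genes). Cps1, the entry enzyme of the urea cycle, was 331 to 623 TPM in vehicle (median 450.1) and 557 to 1396 TPM at 3 nmol/kg (median 712), with mouse 51 far above the rest (0.66 ± 0.19, FDR = 0.0177; 0.0777 with the length trend removed). The mitochondrial glutamate carrier Slc25a22 rose by 0.62 ± 0.19 without overlap (FDR = 0.0298; 0.123 with the length trend removed). The ammonium transporter Rhbg was 5.88 to 12.2 TPM in vehicle and 2.59 to 9.55 TPM at 3 nmol/kg (-0.91 ± 0.22, FDR = 0.00742).

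Of 21 genes of the methionine cycle and nicotinamide metabolism 3 rose and 1 fell (19%, beside 13.4% of all genes). Nnmt, nicotinamide N-methyltransferase, was 43.9, 72.9, 90.4, 108, 119 and 155 TPM in vehicle and 60.2, 167, 196, 197, 199.7 and 325 TPM at 3 nmol/kg. The treated mice other than mouse 49 lay above vehicle (0.84 ± 0.28, FDR = 0.0388), and the gene passed in 14 of 24 settings. Cbs, which commits homocysteine to cysteine, was 122.92 to 162.23 and 162.42 to 284.60 TPM without overlap (0.44 ± 0.10, FDR = 0.00445; 0.0989 with the length trend removed). Mtr (0.53 ± 0.19) rose and Nmnat1 (-0.22 ± 0.06) fell, and neither passed with the length trend removed (FDR of 0.184 and 0.0633).

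In the list of 21 tested genes of lipid droplets and fat storage 0 rose and 5 fell (23.8%, beside 13.4% of all genes). The median was -0.28, and 19 members had a log2 fold change below 0. With the length trend removed 3 fell and the median was -0.28. Lipe, hormone-sensitive lipase, was 11.8 to 15.7 TPM in vehicle and 9.44 to 11.8 TPM at 3 nmol/kg (-0.31 ± 0.06, FDR = 0.00320). Mogat1, a monoacylglycerol acyltransferase, fell by 0.88 ± 0.22 on the log2 scale (FDR = 0.00726), Hsd17b13, a droplet protein of hepatocytes, fell by 0.45 ± 0.13 (FDR = 0.0176; 0.0632 with the length trend removed), and Fitm1 also passed (0.0865 with the length trend removed). Cidea, a droplet fusion protein that appears in fatty hepatocytes, was 6.18, 22.3, 39.8, 45.3, 46.3 and 55.6 TPM in vehicle and 4.76, 4.89, 6.69, 11.4, 12.2 and 51.5 TPM at 3 nmol/kg (-1.59 ± 0.45, FDR = 0.0154). Vehicle mouse 47 was low and treated mouse 54 high, and the gene passed in 15 of 23 settings. The droplet coat Plin2, named after its values were seen, was 697 to 912 and 679.6 to 906 TPM (FDR = 0.862).

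Of 22 fatty acid synthesis genes 1 rose and 2 fell (13.6%, close to the 13.4% of all genes), and Pklr was the 1 that passed with the length trend removed. Gpam, the first step of glycerolipid synthesis, rose by 0.53 ± 0.17 (FDR = 0.0349; 0.125 with the length trend removed) and the citrate carrier Slc25a1 fell by 0.23 ± 0.08 on the log2 scale (FDR = 0.0416; 0.232). Srebf1 (-0.30 ± 0.22, FDR = 0.387), Fasn (-0.09 ± 0.18, FDR = 0.781) and Scd1 (0.33 ± 0.35, FDR = 0.571), the regulator and enzymes of lipogenesis, did not pass. Scd1 was 1039 to 1800.2 TPM in vehicle and 1183 to 3474 TPM at 3 nmol/kg. Of 25 cholesterol genes 0 rose and 1 fell (4%, beside 13.4% of all genes), Acat2 (-0.48 ± 0.15, FDR = 0.0323; 0.0839 with the length trend removed). Of 20 glycolysis and glycogen genes 4 fell and 1 rose (25%, beside 13.4% of all genes). With the length trend removed 2 fell and 1 rose. Eno1, enolase, was 495 to 611 and 457 to 488 TPM (-0.29 ± 0.07, FDR = 0.00550) and Ugp2, which makes UDP-glucose for glycogen, was 163.5 to 197 and 90.3 to 162 TPM (-0.54 ± 0.14, FDR = 0.0114), both without overlap.

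Of 30 genes of fatty acid oxidation and ketogenesis 2 rose and 2 fell (13.3%, close to the 13.4% of all genes), with a median of -0.02. Ppara, the receptor that drives this programme, was 30.4, 36.6, 39.3, 53.1, 59.9 and 105 TPM in vehicle and 31.5, 58.1, 100.1, 108, 115 and 136 TPM at 3 nmol/kg (0.98 ± 0.26, FDR = 0.0109). Vehicle mouse 44 was as high as treated mice 49 and 54, and treated mouse 50 was as low as vehicle. Angptl4 rose by 0.37 ± 0.13 and Acaa1a, a peroxisomal thiolase, had a log2 fold change of -0.23 ± 0.07, and neither passed with the length trend removed (FDR of 0.0702 and 0.0694). Cpt1a, the gate of mitochondrial fatty acid uptake, was 243 to 297 and 242 to 319 TPM (FDR = 0.978), and Fgf21, a hepatokine, did not pass (0.32 ± 0.24, FDR = 0.404). Of 47 nuclear-encoded genes of the respiratory chain 9 fell and 0 rose (19.1%, beside 13.4% of all genes). Of the 47, 46 had a log2 fold change below 0 and the median was -0.15. These transcripts are short (median 1363 bases), and with the length trend removed 0 of 47 passed and the median was -0.07.

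Of 21 acute phase genes, which encode secreted hepatocyte proteins, 5 rose and 0 fell (23.8%, beside 13.4% of all genes). The median was 0.38, and 6 rose with the length trend removed. The treated mice differed in this list. Its mean log2 deviation from the vehicle mean was 0.69 in mouse 51, 0.45 in mouse 53 and 0.25 in mouse 52. It was 0.10 in mouse 50, -0.01 in mouse 54 and -0.02 in mouse 49, beside -0.09 to 0.08 among vehicle mice. The fibrinogen chain Fga was 1972 to 2655 TPM in vehicle (median 2203) and 2692 to 4851 TPM at 3 nmol/kg (median 3440.0; 0.60 ± 0.14, FDR = 0.00568). The fibrinogen chain Fgb (0.53 ± 0.13) and the inter-alpha-trypsin inhibitor chains Itih3 (0.49 ± 0.10) and Itih4 (0.53 ± 0.13) likewise did not overlap vehicle, and Fgg also passed. Of 22 collagen and matrix genes 1 rose and 1 fell (9.09%, beside 13.4% of all genes). The median was -0.31, and 20 members had a log2 fold change below 0. With the length trend removed 1 rose and 3 fell, and the median was -0.39. Fn1, plasma fibronectin, rose by 0.53 ± 0.11 (FDR = 0.00344). Col3a1, a fibrillar collagen, was 12.5 to 41.03 TPM and 4.17 to 29.7 TPM (-1.04 ± 0.31, FDR = 0.0212). The stellate cell marker Lrat was lower too, while the summed stellate markers were 314 to 489 TPM in vehicle and 317 to 420 TPM at 3 nmol/kg, and their part in the collagen values was not tested. Of 18 endoplasmic reticulum chaperone genes 4 rose and 0 fell (22.2%, beside 13.4% of all genes). Among these Herpud1 (0.49 ± 0.14) passed with the length trend removed (FDR = 0.0159).

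Of 18 genes of the insulin, growth hormone and IGF axis 3 rose and 0 fell (16.7%, close to the 13.4% of all genes). Igfbp2, a binding protein of insulin-like growth factors, was 204 to 437 TPM in vehicle (median 275) and 389 to 656 TPM at 3 nmol/kg (median 517), with 5 of 6 treated mice above every vehicle mouse (0.77 ± 0.17, FDR = 0.00409). The insulin receptor Insr (0.43 ± 0.10) and its substrate Irs1 (0.48 ± 0.13) rose too, but not with the length trend removed (FDR of 0.0900 and 0.207). Of 20 clock genes Per1, Clock, Rora and Arntl rose and Dbp fell (25% of the list, beside 13.4% of all genes). The fall of Dbp was 0.57 ± 0.16 on the log2 scale. Arntl, the core activator, rose by 0.22 ± 0.07 (FDR = 0.0237; 0.0632 with the length trend removed), where Clock and Rora did not pass either (FDR of 0.0904 and 0.392) and Per1 and Dbp were the 2 clock genes that did.

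In a list of 21 targets of the antioxidant factor NRF2 and other antioxidant genes 5 fell and 0 rose (23.8%, beside 13.4% of all genes). The median was -0.25, and 4 fell with the length trend removed. Gsta1, a glutathione S-transferase, was 8.54, 13.8, 33.9, 48.6, 53.6 and 88.04 TPM in vehicle and 1.31, 2.38, 10.8, 11.1, 12.1 and 27.2 TPM at 3 nmol/kg (-2.25 ± 0.48, FDR = 0.00344). Vehicle mice 44 and 47 lay within the treated range, and treated mouse 49 was the highest of its group. Gsta2 (-0.84 ± 0.24) and Gstm3 (-0.99 ± 0.29) fell as well, and since Gsta1 and Gsta2 are close copies their reads may be shared. Gpx1, glutathione peroxidase, was 3052 to 3875 and 2086 to 3255 TPM (-0.35 ± 0.08, FDR = 0.00439).

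Of 20 drug-metabolising genes 2 rose and 0 fell (10%, beside 13.4% of all genes). The rises were in Cyp3a13 (0.58 ± 0.11, FDR = 0.00234) and the aryl hydrocarbon receptor Ahr (0.53 ± 0.12, FDR = 0.00446). Of 20 bile acid genes, also 10%, Cyp2c70, which makes muricholic acids, rose by 0.66 ± 0.20 and the bile salt export pump Abcb11 by 0.35 ± 0.11, the latter not with the length trend removed (FDR = 0.149). Cyp7a1, the rate-limiting enzyme of bile acid synthesis, was 27.2 to 81.6 and 54.2 to 83.5 TPM (0.35 ± 0.36, FDR = 0.551). In the list of 17 tested ATF4 and serine synthesis genes 1 rose and 1 fell (11.8%, beside 13.4% of all genes). The pseudokinase Trib3 fell by 0.71 ± 0.13 on the log2 scale (FDR = 0.00170), and Aldh1l2, at no more than 0.210 TPM, rose (FDR = 0.0426; 0.124 with the length trend removed). No member passed among 22 macrophage genes, 20 interferon-stimulated genes, 20 male-biased and 11 tested female-biased liver genes, whose medians were -0.29, -0.16, 0.52 and -0.29 on the log2 scale. Of 22 proliferation genes 0 rose and 1 fell (4.55%, beside 13.4% of all genes). Cdc20 fell by 0.72 ± 0.25 (FDR = 0.0456; 0.108 with the length trend removed), at a level of at most 0.970 TPM.

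**Figure D3:**
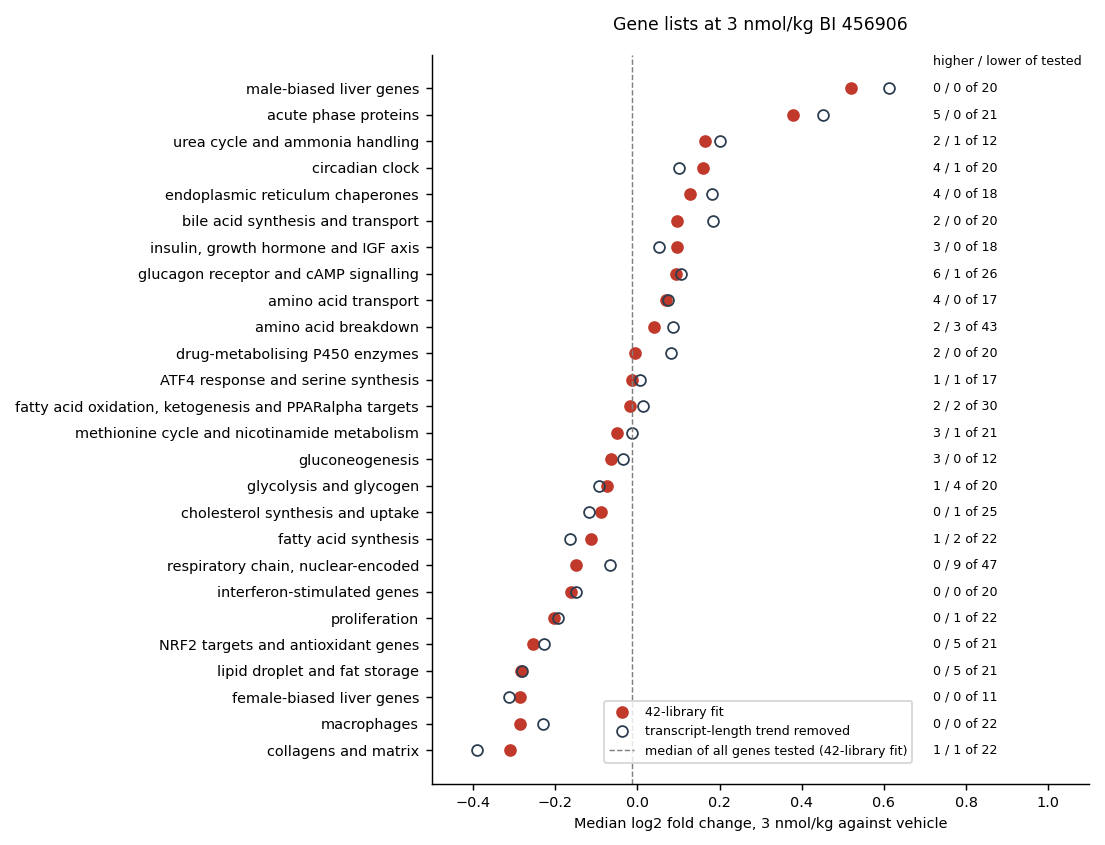
Median log2 fold change of each gene list at 3 nmol/kg against vehicle in the 42-library fit and with each library's transcript-length trend removed, with the number of members higher and lower at FDR at most 0.05. The acute phase list had a median of 0.38 and the lipid droplet list one of -0.28.

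By the median SD between mice, the 6 livers at 3 nmol/kg were the most variable of the 7 liver groups. This SD over all genes tested was 0.22 on the log2 scale at 3 nmol/kg, 0.20 in vehicle and between 0.17 and 0.21 in the 5 other groups, a description without a test. Within the 3 nmol/kg group mouse 51 had 368 of 11818 genes at least 2-fold from the median of the other 5, mouse 49 had 296 and mouse 52 had 88. Among vehicle mice the number ran from 51 in mouse 43 to 246 in mouse 47.

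The first principal component of the 12 livers held 45.6% of the variance and did not separate the groups. Vehicle mice 43, 45, 46 and 48 lay between -28.1 and -18.4, with treated mouse 49 nearby at -14.3. Vehicle mice 44 and 47 lay at 6.17 and 6.77, beside treated mice 50 and 52 at -2.37 and 5.92, and treated mice 53, 54 and 51 lay at 24.8, 23.04 and 42.4. Male-biased genes differed in the same mice: their mean deviation from the vehicle mean was 1.47 in vehicle mouse 44, 1.21 in vehicle mouse 47 and -1.11 in vehicle mouse 46, and 1.65 in treated mouse 51 and -0.97 in treated mouse 49. For lipid droplet genes it was -0.33 and -0.34 in vehicle mice 44 and 47, between 0.11 and 0.23 in the other 4, and between -0.70 and -0.01 at 3 nmol/kg.

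The genes with the widest spread were mostly major urinary proteins, secreted pheromone carriers that depend on the male pattern of growth hormone. Mup7 was 6.2, 8.57, 22.9, 82.3, 1121 and 1191 TPM in vehicle and 19.6, 149.8, 242, 570.3, 694 and 1165 TPM at 3 nmol/kg. The 2 high vehicle values were those of mice 44 and 47, and the lowest treated value was that of mouse 49. Mup1, Mup11, Mup12, Mup15 and the pseudogene Serpina4-ps1 were the others among the 6 widest genes at 3 nmol/kg, and in vehicle Gm21887 stood in place of Serpina4-ps1. Reads of the Mup family may be shared among its near-identical members.

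Further genes, named after their values were seen, split the mice across the labels. Foxn3, a forkhead repressor, was 0.960, 1.13, 1.47, 2.02, 2.5 and 9.37 TPM in vehicle, highest in mouse 44, and 1.64, 7.22, 7.81, 9.76, 10.3 and 11.4 TPM at 3 nmol/kg, lowest in mouse 50 (1.32 ± 0.35, FDR = 0.0113). The kinesin Kif13b and the zinc finger gene Zfp445 were at 8.28 and 7.55 TPM in vehicle mouse 44 and at 1.75 and 3.58 TPM in treated mouse 50. Anxa2, an annexin, was 16.1, 17.3, 30.1, 47.7, 57.4 and 62.7 TPM in vehicle and 10.2, 13.6, 14.97, 15.9, 16.3 and 39.4 TPM at 3 nmol/kg (-1.08 ± 0.24, FDR = 0.00416). Here vehicle mice 44 and 47 lay near the treated level and treated mouse 49 at the vehicle level. The galectin Lgals1 (-1.19 ± 0.30), S100a11 (-1.06 ± 0.30) and the chemokine Ccl2 (-1.69 ± 0.40) also fell, and Avpr1a, the vasopressin receptor of liver, rose by 1.01 ± 0.17 and passed without mice 48 and 51.

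**Figure D4:**
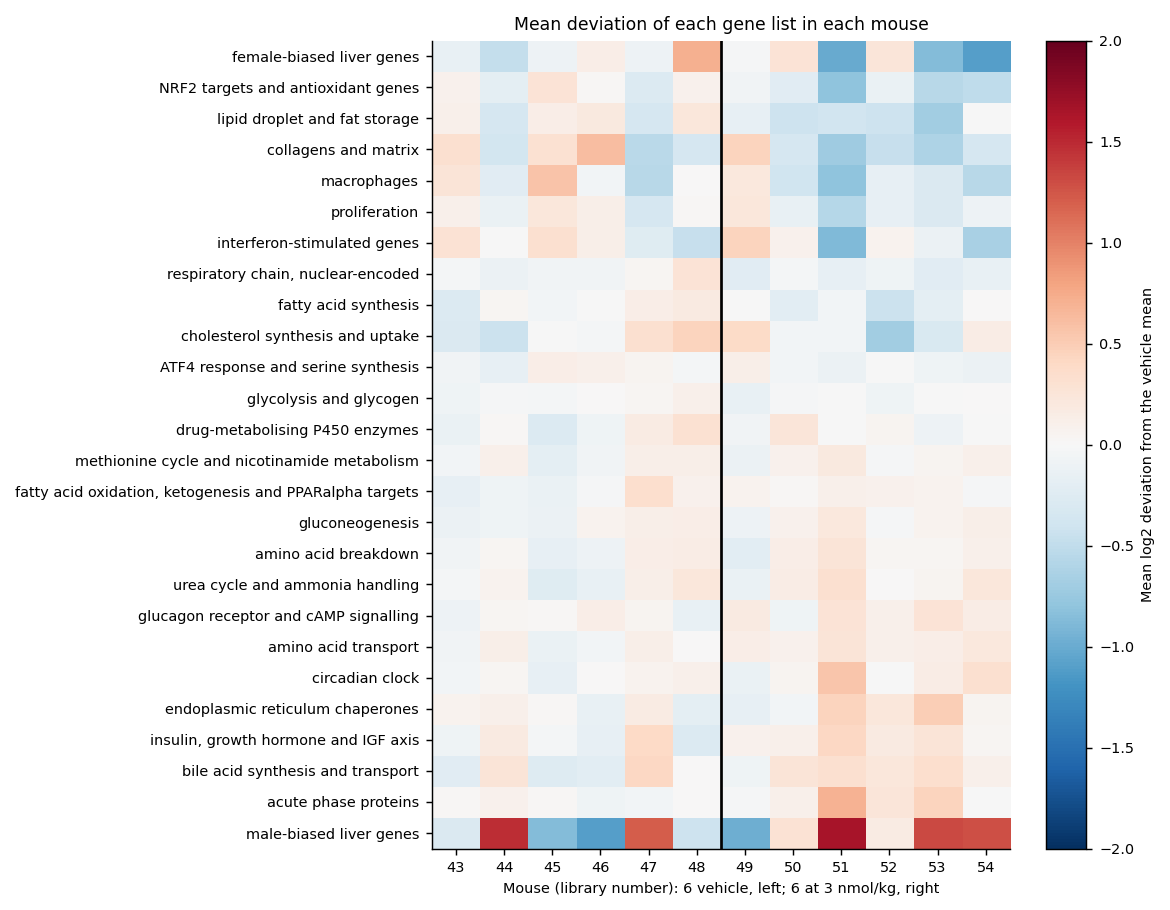
Mean log2 deviation from the vehicle mean of each gene list in each of the 6 vehicle mice and the 6 mice at 3 nmol/kg, as a colour scale. Vehicle mice 44 and 47 are high for male-biased genes (1.47 and 1.21) and treated mouse 49 is low (-0.97).

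The next step in dose was tested directly, without vehicle. Between 10 and 3 nmol/kg 127 genes (0.796%) passed, 92 higher and 35 lower at 10 nmol/kg. Among the named genes these were Slc7a2 (0.77 on the log2 scale, FDR = 0.0326), Ppargc1a (0.59, FDR = 0.0326) and Gls2 (0.52, FDR = 0.0326). The mean level of Gls2 was 183, 195.2, 295, 372 and 416 TPM in vehicle and at 3, 10, 20 and 30 nmol/kg, and that of Slc7a2 was 34.7, 65.4, 114, 165 and 235 TPM. Over the same groups Pklr was 291, 164, 123, 79.7 and 60.1 TPM and Tat was 371, 865, 1290.1, 1767 and 2814 TPM, and neither passed between 10 and 3 nmol/kg (FDR of 0.199 and 0.275). Cfd was 11.5, 2.15, 0.287, 0.0300 and 0.00667 TPM (10 against 3 nmol/kg, FDR = 0.0549). Foxa3 had means of 44.2 and 48.5 TPM at these doses (FDR = 0.897), and Igfbp2 was 513 and 597 TPM (FDR = 0.797).

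**Figure D5:**
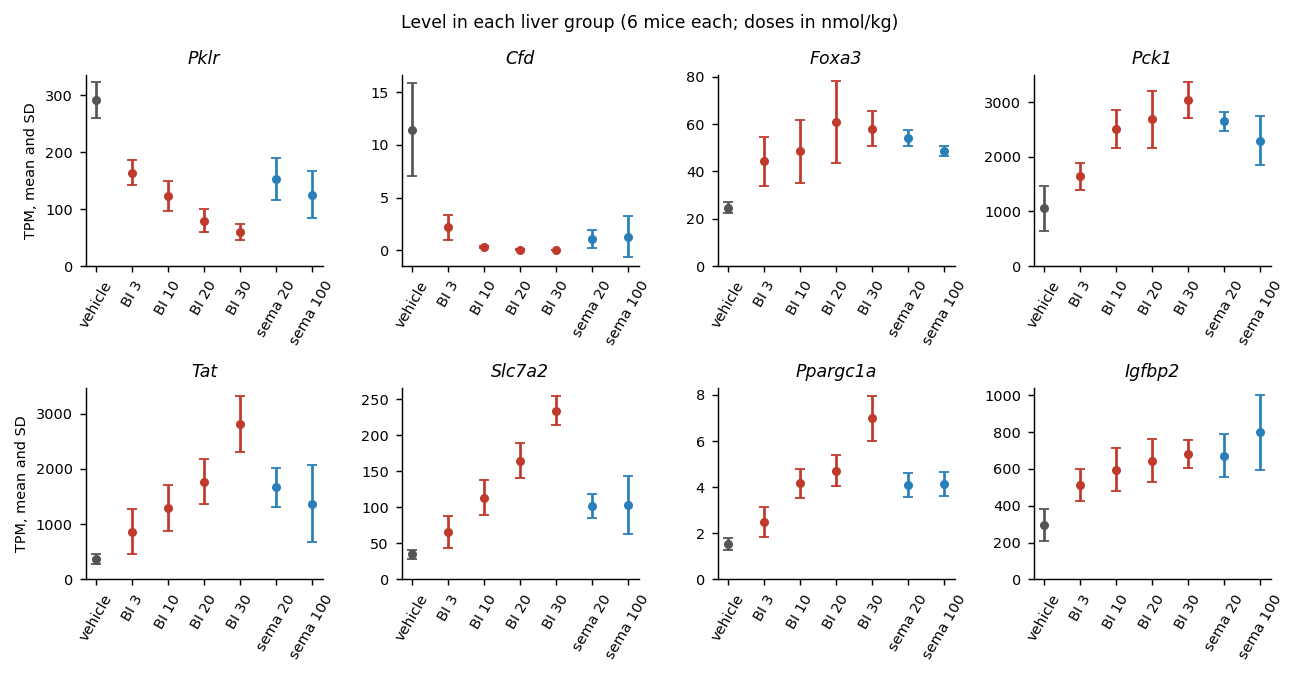
Mean TPM with SD of 8 genes in the 7 liver groups of 6 mice, with doses in nmol/kg. Mean Slc7a2 was 34.7 TPM in vehicle and went through 65.4 TPM to 235 TPM from the lowest to the highest dose of BI 456906.

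Semaglutide was given at other doses, the lowest being 20 nmol/kg, so the values are set side by side. In the direct test of 3 nmol/kg BI 456906 against 20 nmol/kg semaglutide 1236 genes (7.74%) differed, 376 higher (2.36%) and 860 lower (5.39%) with BI 456906. Pck1 was 1644 ± 251 TPM with BI 456906 and 2654 ± 172 TPM with semaglutide (SD, n = 6; FDR = 0.0160 by limma). Tat was 865 ± 409.9 TPM with BI 456906 and 1664 ± 348 TPM with semaglutide (FDR = 0.0160) and Slc38a2 was 32.3 ± 10.1 TPM with BI 456906 and 64.8 ± 10.3 TPM with semaglutide (FDR = 0.00212). Il1r1 (FDR = 0.00759), Skil, Ppargc1a, Foxo1 and Slc7a2 were likewise lower with 3 nmol/kg BI 456906 than with semaglutide. Of the 26 named genes that differed here 16 were lower and 10 higher with BI 456906. The higher ones were Gstm3 (log2 difference 1.5, FDR = 0.0117), Mogat1 (0.93, FDR = 0.0314), Rhbg (0.88, FDR = 0.0448), E330011O21Rik (0.80, FDR = 0.0340), Acat2 (0.49, FDR = 0.0437), Bckdhb (0.27, FDR = 0.00887), Acaa1a (0.26), Slc25a1 (0.24), Gapdh (0.21) and Ndufa10 (0.20). Pklr (log2 difference 0.16 ± 0.20, SE), Nnmt (0.09 ± 0.28), Igfbp2 (-0.33 ± 0.17) and Per1 (-0.52 ± 0.18) did not pass in this test. By transcript length, the longest class minus the shortest had a median of 0.36 over the mice at 3 nmol/kg. It was 0.53 at 10 nmol/kg and 0.52 with 20 nmol/kg semaglutide. Values with the length trend removed are not given for this test or for 10 against 3 nmol/kg. Against vehicle, Acat2, Bckdhb, Acaa1a, Slc25a1, Gapdh and Ndufa10 did not pass with that trend removed, nor did Il1r1, Ppargc1a and Foxo1.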

How the data were processed

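Liver RNA from 42 mice in 7 groups of 6 was sequenced, 1 library per mouse. The authors deposited a table of reads per gene divided by 1 factor per library, a scaled signal, and a table of TPM, levels scaled for transcript length and library total, also made by the authors. The submitters' processing notes name FastQC 0.11.5, STAR 2.5.2b, RSEM 1.3.0 and featureCounts 1.5.1 with builds mm10 and GRCm38. The library kit and sequencer given in the labels differ from those in the study's methods. Raw counts had been assumed when the tests were chosen. In every library all nonzero values (100%, within a tolerance of 0.02 reads) were whole multiples of a step of 0.827 to 1.99, so the reads were recovered for the count tests.

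Deposited values were analysed with limma 3.58.1 (voom, TMM from edgeR 4.0.16, filterByExpr, R 4.3.3) as 7 group means over 42 libraries, with Benjamini-Hochberg adjustment. Levels are TPM. For single values a two-sided exact permutation test was used. Alternatives were other scalings and filters, edgeR quasi-likelihood and DESeq2 1.42.0 on recovered reads, log2(TPM + 1) and log2(TPM + 0.1), quality weights, the 12 libraries alone and each mouse left out. The fits were checked on simulated data.

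Named genes were the 10 largest rises and 10 largest falls past the FDR with at least 1 TPM and no overlap, up to 4 members with the smallest FDR in each of 26 lists, 15 fixed genes and the 6 most variable genes in each group with at least 10 TPM. Members and lists were chosen with earlier results of these data known. Some genes that these rules chose are not reported here. Promoters were RefSeq sequences matched by symbol.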

Additional observations from a re-analysis of the deposited data

Results flagged for a closer look

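Among 264 groups of 6 values examined, for named genes and summed markers, 18 held 1 mouse whose gap to the nearest of the others exceeded the 95% critical value of Dixon's test. Chance gives such a value in about 1 in 20 groups picked without regard to their values, and no cause was tested. That rate does not hold for genes chosen for their spread (Serpina4-ps1) or after their values were seen (Foxn3, Kif13b, Anxa2 and Ccl2). In the vehicle group the far values were as follows. Fgl1 was 318 TPM in mouse 47 and 220.0 to 247 TPM in the other 5. Ccdc82 was 0.480 TPM in mouse 48 and 1.28 to 1.64 TPM in the other 5. Mtr was 2.21 TPM in mouse 44 and 0.700 to 1.16 TPM in the other 5. Dbp was 7.90 TPM in mouse 45 and 9.67 to 10.5 TPM in the other 5. Fgb was 1247 TPM in mouse 47 and 992 to 1087 TPM in the other 5. Aldh1l2 was 0.150 TPM in mouse 44 and 0.0400 to 0.0800 TPM in the other 5. Scd1 was 1039 TPM in mouse 43 and 1629.5 to 1800.2 TPM in the other 5. Serpina4-ps1 was 28.9 TPM in mouse 44 and 1.03 to 8.05 TPM in the other 5. Foxn3 was 9.37 TPM in mouse 44 and 0.960 to 2.5 TPM in the other 5. Kif13b was 8.28 TPM in mouse 44 and 0.770 to 3.45 TPM in the other 5. The sum of B and plasma cell markers was 20.8 TPM in mouse 45 and 9.17 to 13.4 TPM in the other 5. In the 3 nmol/kg group the far values were as follows. Gm8893 was 46.4 TPM in mouse 51 and 16.9 to 26.7 TPM in the other 5. Cps1 was 1396 TPM in mouse 51 and 557 to 859.7 TPM in the other 5. Cidea was 51.5 TPM in mouse 54 and 4.76 to 12.2 TPM in the other 5. Gstm3 was 52.8 TPM in mouse 49 and 13.8 to 22.5 TPM in the other 5. Serpina4-ps1 was 128 TPM in mouse 51 and 0.440 to 32.2 TPM in the other 5. Anxa2 was 39.4 TPM in mouse 49 and 10.2 to 16.3 TPM in the other 5. Ccl2 was 7.26 TPM in mouse 49 and 0.220 to 2.52 TPM in the other 5. Mouse 44 was the far one in 5 of the 18 groups, and mice 49 and 51 in 3 each.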

How the results depend on the processing

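None of the 98 named genes past the FDR changed sign in any alternative in which it could be fitted. The 125 genes called at 3 nmol/kg became 46 with at least 10 in every library, 25 with log2(TPM + 1), 76 with log2(TPM + 0.1), 253 with quality weights, 1 in the 12 livers alone and 8 without mice 48 and 51, and ranged from 42 (without mouse 51) to 201 (without mouse 50) when single mice were left out. The 2138 genes past the FDR became 3272 with quality weights, 3 in the 12 livers alone, 76 without mice 48 and 51 and 940 with the length trend removed, and ranged from 761 (without mouse 51) to 2933 (without mouse 50). The 127 genes between 10 and 3 nmol/kg became 203 with library size alone, 19 with no filter, 375 with DESeq2 and 328 with quality weights. The 1236 genes against semaglutide became 702 with no filter and 2082 with quality weights. The called genes were mostly lower (44.8% higher), but mostly higher with edgeR (59.3%) and DESeq2 (71.1%). Of those past the FDR 63.2% were higher, against 52.8% with library size alone, 78.99% with log2(TPM + 1) and 82.5% with log2(TPM + 0.1). Between 10 and 3 nmol/kg 72.4% were higher, against 86.2% with library size alone, and against semaglutide 30.4%, against 17.98% with log2(TPM + 1). The fits without mice 48 and 51 and with the length trend removed were chosen after seeing the data. Of the 98 named genes past the FDR, 44 were lost without mouse 51, 34 without mouse 53, 31 without mouse 48 and 38 with the length trend removed. No paired analysis was possible because each liver library came from a different mouse. Depth was 39049001 reads or more in the 12 libraries and 21676902 reads or more in all 42 of the gene tests. The lowest was library 77, of the group given 20 nmol/kg semaglutide. Genes under 1 TPM are least certain.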
